A study of Ovis aries with 6 samples.

Results

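The TGF-beta and BMP pathway genes are the secreted ligands of the transforming growth factor beta and bone morphogenetic protein families, the proteins that hold or block them, their receptors, and the SMAD proteins that carry the signal to the nucleus. Genes were taken by name from the array's annotation. BMP4, FST, LTBP1, TGFB1 and TGFBR1 were taken wherever the name or description column named them, together with every gene name starting with BMP, SMAD, INHB, ACVR or TGFB, except TGFBI. This gave 22 genes with 37 probes, of 14434 genes and unnamed transcripts on the array. Of the 22 genes, 18 had a probe that could be tested and 4 did not.

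The cells were cultured from sheep (Ovis aries). One group was skin epidermal stem cells, which as named give rise to keratinocytes of the skin, and the other was corneal epithelial cells, from the layer that covers the front of the eye. There were 3 samples per group, described as cell lines in the design text, and each was hybridised to 1 single-colour (Cy3) array. No treatment sets the groups apart in the labels, which state neither the age of the sheep nor whether the cultures came from separate animals. The p-values therefore reflect the spread among these samples alone, which may be technical, and the number of arrays limits the precision.

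TGF-beta ligands are secreted in a latent complex, which latent TGF-beta binding proteins such as LTBP1 tether to the matrix, and they act only once released. A released ligand brings together a type II and a type I receptor, and the type I receptor phosphorylates SMAD proteins, which join SMAD4 and enter the nucleus. TGF-betas and activins act mainly through SMAD2 and SMAD3, BMPs through SMAD1, SMAD5 and SMAD9, and SMAD7 inhibits both branches. In epithelia, TGF-beta is known for slowing growth and promoting matrix production, and BMP4 for its part in forming skin appendages and the eye.

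The probes below carry the main ligand and receptor results and are shown to make clear which stretch of each transcript was measured. They were read from the array files, 5′ to 3′, and the array's annotation lists no genome position for them. The 2 BMP4 probes share 59 of their 60 bases, and the capital marks the base that each has alone. BMP4, TGFB1, TGFB2 and INHBA probes lie in the coding sequence of the mature ligand, and the INHBA probe is printed up to its stop codon. Both TGFBR1 probes and the second TGFBR2 probe lie in the kinase part, the first TGFBR2 probe in the extracellular part. The brighter probe stands for the gene, which is probe 1 of BMP4, probe 2 of TGFBR1 and TGFBR2, and the INHBA probe shown.
BMP4 probe 1: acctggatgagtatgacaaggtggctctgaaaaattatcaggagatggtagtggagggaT
BMP4 probe 2: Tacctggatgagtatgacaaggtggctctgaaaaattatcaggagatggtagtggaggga
TGFB1 probe: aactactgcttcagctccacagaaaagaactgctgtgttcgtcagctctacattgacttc
TGFB2 probe: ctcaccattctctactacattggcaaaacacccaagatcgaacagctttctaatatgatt
INHBA probe: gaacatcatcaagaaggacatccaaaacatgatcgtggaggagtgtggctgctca
TGFBR1 probe 1: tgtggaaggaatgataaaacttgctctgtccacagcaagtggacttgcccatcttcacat
TGFBR1 probe 2: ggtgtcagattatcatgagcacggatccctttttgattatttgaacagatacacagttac
TGFBR2 probe 1: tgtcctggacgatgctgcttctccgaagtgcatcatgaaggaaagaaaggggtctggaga
TGFBR2 probe 2: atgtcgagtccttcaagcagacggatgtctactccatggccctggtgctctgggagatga

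The arrays were closely alike within a group. Across probes, not independent of each other, arrays correlated at 0.995 to 0.998 within and 0.968 to 0.970 between groups. Between 11785 and 12414 of 15208 gene spots were well above background on the epidermal arrays and between 11091 and 11539 on the corneal arrays, and no gene spot was saturated. On the single slide, row 1 held all epidermal and row 2 all corneal arrays, so position on the slide and cell type cannot be told apart. The labelled cell types were checked against 8 marker lists, and several defining epithelial markers were weak or absent. KRT5, KRT14 and TP63, basal keratinocyte markers, were not well above background on enough arrays to be tested. KRT15 and DSP were above it on 3 epidermal arrays but 1 corneal array each, and could be tested only through the epidermal arrays. Their groups overlapped and neither was called, with log2 changes of −0.14 and −0.37 (limma adjusted p = 0.401 and 0.144). Of the corneal markers, PAX6 was 1.23-fold higher and ALDH1A1 28.6-fold lower in corneal cells, with summed levels of 3.21 to 3.33 on the epidermal and 0.285 to 0.317 on the corneal arrays, in multiples of each array's 75th percentile. Markers of mesenchymal cells were bright in both groups. Their summed level, in the same unit, was 971 to 1198 on the epidermal and 925 to 946 on the corneal arrays. Of 9 measured, 6 were called lower by the rule given below and 0 higher, where 33.1% of all genes tested were called lower. Of these 6, POSTN was above background on no corneal array and could be tested only through the epidermal arrays. Immune markers summed to 2.43 to 2.54 and 1.61 to 1.67, smooth muscle markers to 14.4 to 17.6 and 12.6 to 13.4, endothelial markers to 0.0300 to 0.0371 and 0.0148 to 0.0189, simple epithelial markers to 0.268 to 0.331 and 0.283 to 0.330, and stratified epithelial markers to 0.0281 to 0.0352 and 0.0240 to 0.0283. Both endothelial markers measured, VWF and TIE1, and the simple epithelial marker CLDN4 were above background on 3 epidermal but 0 corneal arrays. The immune marker FCGR3A was above it on 3 epidermal and 1 corneal array. These 4 could be tested only through the epidermal arrays, and the corneal endothelial sum is a background signal. Smooth muscle markers moved apart, CNN1 2.11-fold and DES 2.31-fold higher and MYLK 9.10-fold lower in corneal cells. No melanocyte marker could be tested. The part of these markers in the pathway results was not tested.

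Values below are normalized log2 values, the log2 of the processed spot signal minus the 75th percentile of the same array. A value of 0 thus means a signal at that percentile, and levels are compared only between groups for the same probe. A change is the corneal minus the epidermal mean over 3 arrays a group, given with limma's moderated standard error (SE). That SE draws on the spread of all genes tested as well as on the gene's own arrays, and the confidence intervals use it. A gene was called where limma's Benjamini-Hochberg adjusted p over all 11370 genes and transcripts was below 0.05. In these bulk samples, fewer cells of a type and less RNA per cell cannot be told apart.

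Among the 18 measured pathway genes, 5 rose and 7 fell in corneal cells. BMP4, TGFBR1, BMPR1B, TGFB2 and ACVR2B were higher, and FST, LTBP1, TGFB1, ACVR2A, SMAD5, INHBA and TGFBR2 were lower. The share called, 66.7%, was near the 59.5% called among all genes tested, of which 26.4% rose and 33.1% fell. Called changes of at least 2-fold were found for 3 of the 18 genes, BMP4, FST and LTBP1, which is 16.7% against 7.38% of all genes tested. Groups did not overlap for 5 genes that were higher and 8 that were lower, and over all genes tested 67.6% did not overlap. The median change was −0.088 over the measured pathway genes and −0.047 over all genes, and the median absolute change was 0.42 against 0.24. These shares and medians are descriptions of the 18 genes and show nothing particular to them.

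**Figure D1:**
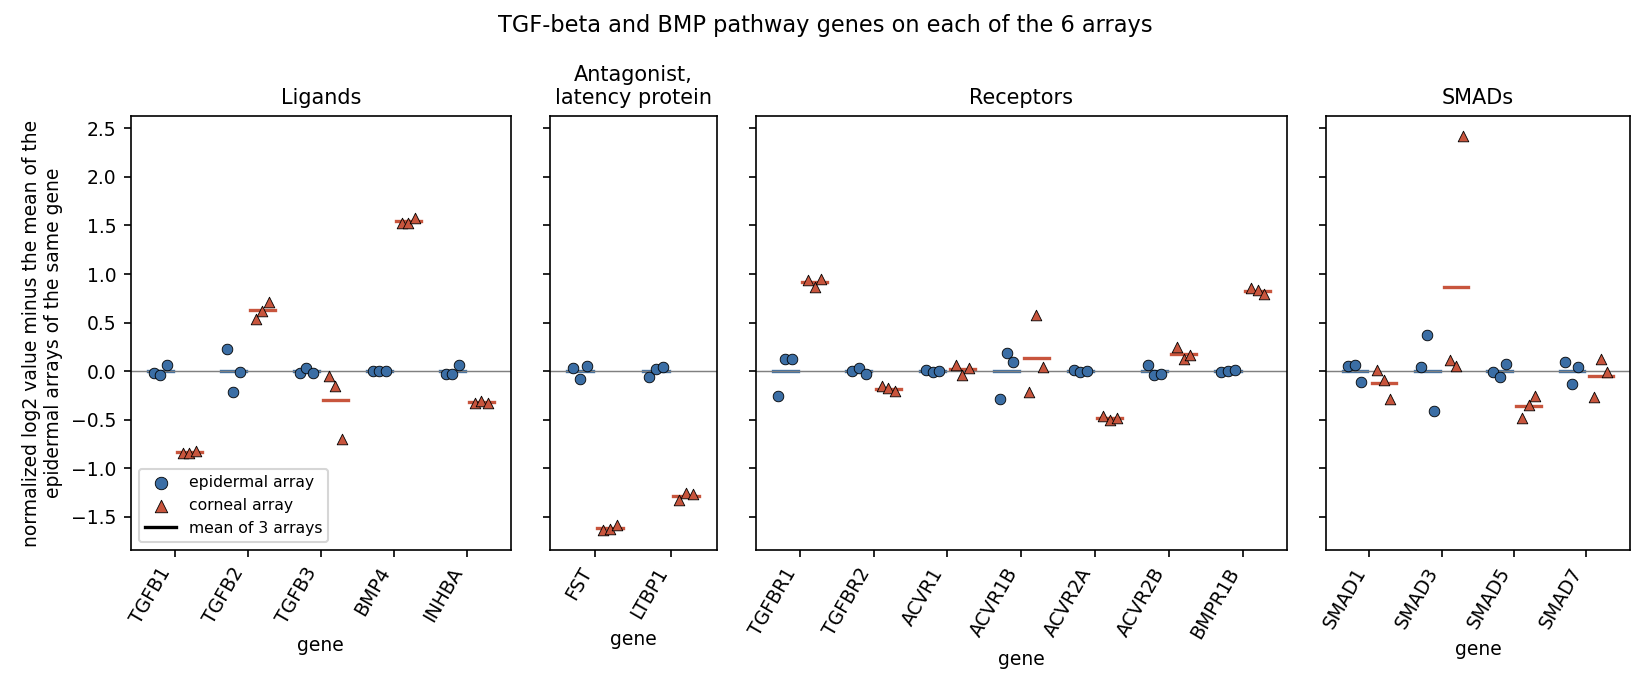
Each point is 1 array, plotted as its normalized log2 value minus the epidermal mean of the same gene, with bars for the means of 3 arrays, for the 18 measured genes grouped by role. The corneal arrays of BMP4, TGFBR1 and BMPR1B lie above every epidermal array and those of FST, LTBP1 and TGFB1 below, while a single corneal array of SMAD3 lies far above the rest.

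The ligands moved in both directions, 2 up, 2 down and 1 not called among 5 measured. BMP4 had the largest called rise of these 18 genes. BMP4, a secreted BMP ligand, gave processed signals of 383, 333 and 338 on the epidermal and 906, 903 and 923 on the corneal arrays. Its normalized values were −1.52, −1.53 and −1.53 in epidermal replicates 1 to 3 and 0.0044, −0.0021 and 0.055 in corneal replicates 1 to 3. The corneal arrays all lay above the epidermal ones, and the replicates were close, with an SD of 0.0034 among the epidermal and 0.031 among the corneal arrays. The change was 1.54 ± 0.029 (SE), a 2.92-fold rise (95% confidence interval 2.77 to 3.07, limma adjusted p = 1.05e-06). The second BMP4 probe gave a change of 1.52 ± 0.051.

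TGFB1 and TGFB2, which bind the same receptors, moved in opposite directions. TGFB1, the most widely expressed TGF-beta in adult tissues, had normalized values of −0.55, −0.56 and −0.47 on the epidermal arrays and −1.37, −1.37 and −1.35 on the corneal arrays. It was 1.79-fold lower in corneal cells (95% confidence interval 1.68 to 1.90), a change of −0.84 ± 0.036 with a limma adjusted p = 1.64e-05. TGFB2 was dimmer, with −4.71, −5.14 and −4.94 on the epidermal and −4.39, −4.31 and −4.22 on the corneal arrays. Groups did not overlap, but the highest epidermal and the lowest corneal array were closer than the highest and the lowest epidermal array. TGFB2 was 1.54-fold higher in corneal cells (95% confidence interval 1.26 to 1.89), a change of 0.63 ± 0.12 with a limma adjusted p = 0.00566.

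Within an array the ratio of the TGFB2 to the TGFB1 signal therefore shifted. Relative to the epidermal mean, the log2 ratio was 0.25, −0.18 and −0.072 on the epidermal arrays and 1.38, 1.46 and 1.54 on the corneal arrays. The shift corresponds to 2.76-fold and was computed after the values were seen, with no test. TGFB3, the remaining TGF-beta, was near background. Its values were −6.04, −5.99 and −6.04 on the epidermal and −6.07, −6.18 and −6.72 on the corneal arrays, of which 1 was well above background. All corneal values lay below the epidermal ones, but the change of −0.30 ± 0.17 was not called (limma adjusted p = 0.181), with a 95% confidence interval from −0.73 to 0.12. Without corneal replicate 3 this probe changed by −0.10 (limma adjusted p = 0.132). The second TGFB3 probe, which shares 59 bases with it, gave −0.072 ± 0.029.

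INHBA, the beta A subunit whose dimer is activin A, was bright in both groups and modestly lower in corneal cells. Its normalized values were 2.28, 2.29 and 2.38 on the epidermal arrays and 1.99, 2.01 and 1.98 on the corneal arrays. The fall was 1.25-fold (95% confidence interval 1.17 to 1.33), a change of −0.32 ± 0.037 (limma adjusted p = 0.000745), and the second INHBA probe gave −0.31 ± 0.035. BMP2, BMP6, BMP7 and BMP15 had no probe above background on at least 3 arrays and could not be tested. BMP2 and one BMP6 probe were above background on 1 epidermal array each, and all other probes of these 4 genes on no array. A dim probe gives only an upper bound on the signal, so whether these ligands were expressed could not be judged here.

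Both genes that act on ligands outside the cell fell. FST, follistatin, which binds activin and keeps it from its receptors, had the largest called fall of these 18 genes. It gave processed signals of 1023, 830 and 918 on the epidermal and 265, 267 and 271 on the corneal arrays. The normalized values were −0.10, −0.21 and −0.085 on the epidermal arrays and −1.77, −1.76 and −1.72 on the corneal arrays, far apart against an SD of 0.067 and 0.030 within the groups. FST was 3.07-fold lower in corneal cells (95% confidence interval 2.84 to 3.31), a change of −1.62 ± 0.044 with a limma adjusted p = 3.08e-06. The second FST probe, which shares 59 bases with the first, gave −1.61 ± 0.034.

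LTBP1, which anchors latent TGF-beta in the matrix, was the other gene to fall. Its only probe is assigned to it by the array's annotation through similarity to the bovine LTBP1 protein. LTBP1 had normalized values of −0.61, −0.53 and −0.52 on the epidermal and −1.88, −1.81 and −1.82 on the corneal arrays, with no overlap. The fall was 2.43-fold (95% confidence interval 2.27 to 2.61), a change of −1.28 ± 0.040 with a limma adjusted p = 5.31e-06. The ratio of INHBA to FST signal, set relative to its epidermal mean, was −0.064, 0.050 and 0.013 on the epidermal and 1.31, 1.33 and 1.25 on the corneal arrays. That is a 2.45-fold shift toward INHBA, also computed after the values were seen and without a test.

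Of the 7 receptors, all measured, 3 were higher, 2 lower and 2 not called. TGFBR1, the type I receptor for TGF-beta, rose while TGFBR2, its type II partner, did not rise on the probe used. TGFBR1 had normalized values of −3.67, −3.29 and −3.29 on the epidermal arrays and −2.48, −2.55 and −2.47 on the corneal arrays. The corneal arrays lay close together above all epidermal ones, and epidermal replicate 1 was the lowest. TGFBR1 was 1.89-fold higher in corneal cells (95% confidence interval 1.56 to 2.29), a change of 0.92 ± 0.11 with a limma adjusted p = 0.000987. Its other probe, from a separate stretch of the kinase part, gave 0.83 ± 0.075.

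The kept probes of TGFBR2 differed in sign, as did those of SMAD3. The probe in the kinase part read −1.29, −1.26 and −1.32 on the epidermal and −1.44, −1.46 and −1.50 on the corneal arrays. By it TGFBR2 was 1.13-fold lower, a change of −0.18 ± 0.031 (limma adjusted p = 0.00418). The probe in the extracellular part read −3.52, −3.16 and −3.38 on the epidermal and −3.09, −3.40 and −3.06 on the corneal arrays. Here the groups overlapped, and the change of 0.17 ± 0.13 was not called in the limma fit by probe (adjusted p = 0.299). The log2 ratio of TGFBR1 to the kinase probe of TGFBR2, relative to the epidermal mean, was −0.26, 0.098 and 0.16 on the epidermal and 1.09, 1.04 and 1.16 on the corneal arrays, again a ratio chosen after its values were seen.

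BMPR1B, a type I receptor for BMPs, rose together with BMP4. BMPR1B had normalized values of −0.30, −0.29 and −0.28 on the epidermal and 0.56, 0.54 and 0.51 on the corneal arrays. It was 1.77-fold higher in corneal cells (95% confidence interval 1.69 to 1.87), a change of 0.83 ± 0.029 with a limma adjusted p = 7.88e-06. Its probe is printed in 5 spots on each array, whose values had a median SD of 0.068 within an array. The SD between arrays, taken on values already averaged over the 5 spots, was 0.010 among the epidermal and 0.029 among the corneal arrays. It cannot be set directly against the SD of single spots.

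The 2 type II activin receptors, which also serve several BMPs, moved apart. ACVR2A read −1.58, −1.61 and −1.60 on the epidermal and −2.06, −2.10 and −2.08 on the corneal arrays. It was 1.40-fold lower in corneal cells (95% confidence interval 1.33 to 1.47), a change of −0.48 ± 0.028 with a limma adjusted p = 5.06e-05, and a probe from another stretch gave −0.37 ± 0.053. ACVR2B read −2.38, −2.49 and −2.48 on the epidermal and −2.20, −2.33 and −2.28 on the corneal arrays. The groups lay close without overlap, and ACVR2B was 1.13-fold higher, a change of 0.18 ± 0.048 (limma adjusted p = 0.0211). That call was lost without scaling between arrays, with a change of 0.013 (limma adjusted p = 0.916). It was also lost without epidermal replicate 2 or 3 or corneal replicate 1 or 3, with limma adjusted p-values of 0.0596, 0.0643, 0.0559 and 0.0525.

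The type I receptors ACVR1, for BMPs and activins, and ACVR1B, for activins, were not called. ACVR1 changed by 0.017 ± 0.035 on its brightest probe, with a 95% confidence interval from −0.071 to 0.10, and by 0.14 ± 0.064 and 0.14 ± 0.057 on 2 others. Its corneal values of −1.42, −1.52 and −1.45 lay on both sides of the epidermal −1.48, −1.49 and −1.48. ACVR1B changed by 0.13 ± 0.23 (95% confidence interval −0.44 to 0.71), with values of −5.81, −5.34 and −5.43 on the epidermal and −5.74, −4.95 and −5.48 on the corneal arrays. A second ACVR1B probe that shares 36 bases with it was above background on no array.

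**Figure D2:**
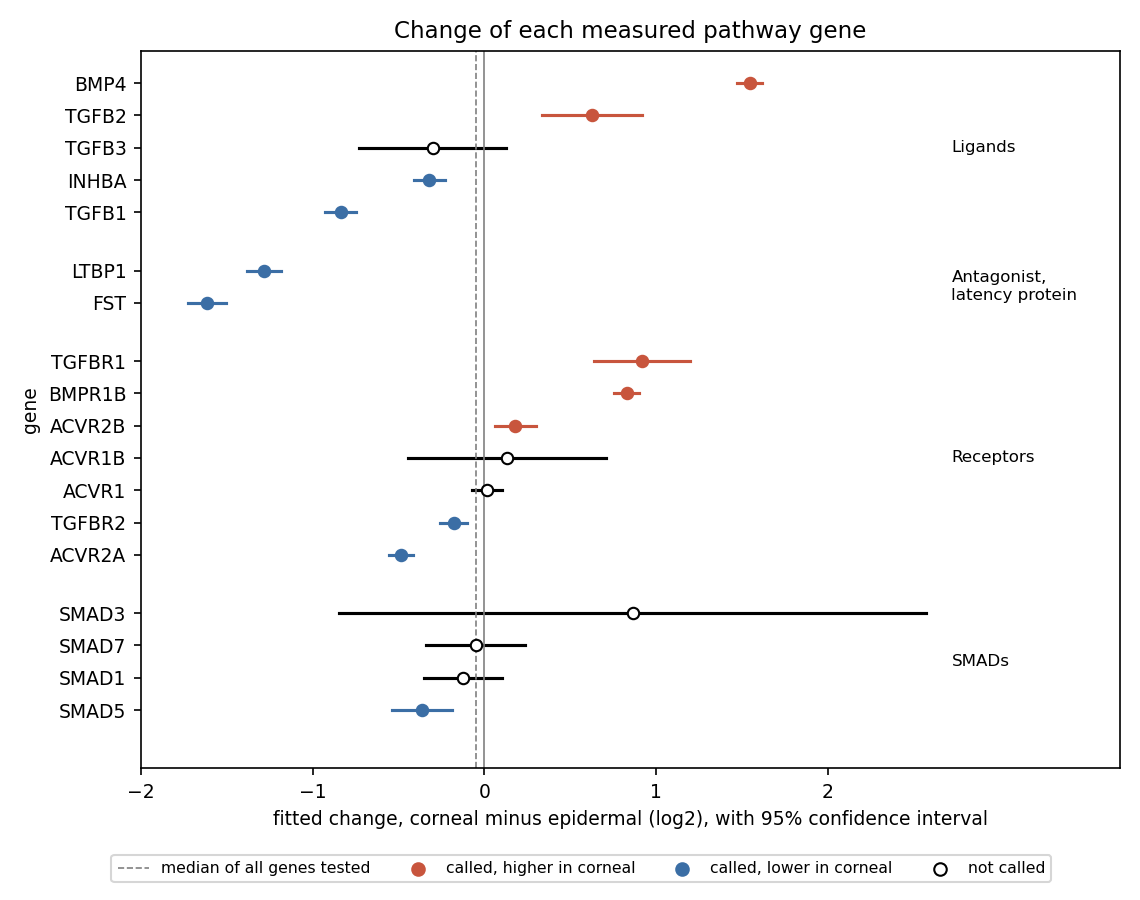
Fitted change of each measured gene, corneal minus epidermal on the log2 scale, with its 95% confidence interval, by role, with filled points for called genes and a dashed line at the median of all genes tested, −0.047. BMP4 at 1.54 and FST at −1.62 are the outermost called points, and SMAD3 has the widest interval, from −0.85 to 2.57.

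Of the 4 SMADs, 1 fell and 3 were not called. SMAD5, a carrier of BMP signals, read −3.33, −3.39 and −3.26 on the epidermal and −3.81, −3.68 and −3.58 on the corneal arrays, without overlap. It was 1.29-fold lower in corneal cells (95% confidence interval 1.14 to 1.45), a change of −0.36 ± 0.071 with a limma adjusted p = 0.00646. SMAD1, the other BMP carrier measured, changed by −0.12 ± 0.091 (95% confidence interval −0.35 to 0.10) and was not called. Its values were −5.67, −5.66 and −5.83 on the epidermal and −5.71, −5.81 and −6.00 on the corneal arrays, which overlap. The inhibitory SMAD7 changed by −0.051 ± 0.12 (95% confidence interval −0.34 to 0.24), with −4.84, −5.06 and −4.89 on the epidermal and −5.20, −4.80 and −4.94 on the corneal arrays. SMAD1 and SMAD7 turned to higher in corneal cells with quantile normalization, with changes of 0.11 and 0.079.

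SMAD3, the carrier of TGF-beta and activin signals, could not be judged from these arrays. Its brighter probe read −6.20, −5.88 and −6.66 on the epidermal arrays and −6.13, −6.20 and −3.82 on the corneal arrays. Corneal replicate 3 stood alone, and the change of 0.86 ± 0.69 was not called (limma adjusted p = 0.322). Without that array this probe changed by 0.084. The other SMAD3 probe was then the brighter one and stood for the gene, with a change of −0.20 (limma adjusted p = 0.136). That probe, which shares 59 of 60 bases with the first, read −6.24, −6.29 and −6.83 on the corneal arrays and had its lowest value where the first had its highest. The names of the SMAD1, SMAD3 and SMAD7 probes rest on the array's annotation of expressed sequence tags.

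Several probes were kept for 10 of the 18 genes, and their changes were set side by side.

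**Figure D3:**
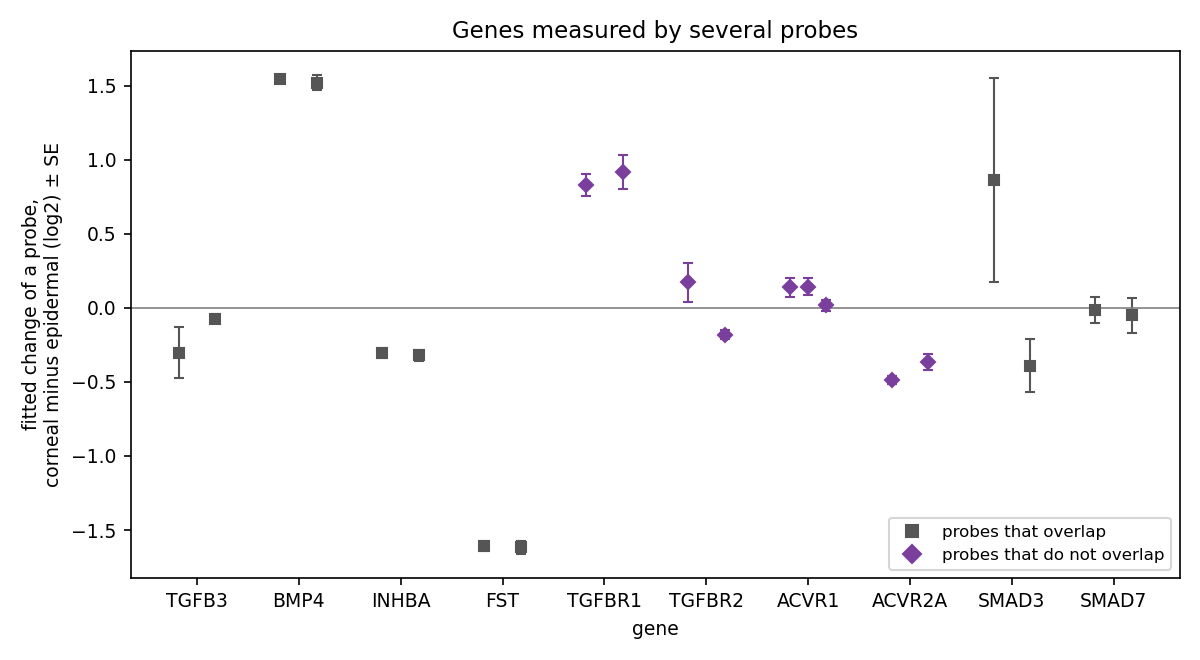
Fitted change of every kept probe of genes with several, corneal minus epidermal on the log2 scale with its SE, with squares where probes overlap and diamonds where they do not. Probes of BMP4, FST, INHBA and TGFBR1 lie together, while those of TGFBR2 and SMAD3 lie on both sides of 0.

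Among 6 pairs of kept probes that shared 59 bases, the changes differed by 0.0087 to 1.25, and by at most 0.23 once the SMAD3 pair was left out. Among 6 pairs that did not overlap, from TGFBR1, TGFBR2, ACVR1 and ACVR2A, they differed by 0.0055 to 0.35. Overlapping probes measure the same stretch and are not independent readings of a gene. TGFBR1 and ACVR2A are the called genes whose separate stretches gave changes of the same sign past the threshold on both probes, with limma adjusted p-values by probe of 0.000304 and 0.000978 for TGFBR1 and 4.98e-05 and 0.0019 for ACVR2A.

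Of the 12 called genes, all but ACVR2B kept their direction and call under each of the 17 alternatives run, counting for TGFBR2 only the probe that stands for it when each probe was tested. With normexp background correction, the changes of some dim genes were over 1.5 times smaller, 0.53 for TGFBR1, 0.25 for TGFB2 and −0.16 for SMAD5. The usual FST probe then changed by −1.06 and the other, brighter there, by −1.30. The scaling between arrays shifts every change, however. Without it the median change of all genes tested was −0.21 instead of −0.047, and 1464 genes were higher and 5090 lower, where the scaled values gave 2997 and 3763. BMP4 then changed by 1.38 and FST by −1.78. INHBA changed by −0.49 and TGFBR2 by −0.35, both over 1.5 times their scaled changes.

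Other genes of the pathway were counted from 7 lists of ligands, latency and activation proteins, antagonists, receptors, SMADs, SMAD partners and response genes. Of 158 such genes outside those above, 43 had a named probe and 40 were measured, of which 13 were higher, 15 lower and 12 not called. The share called was 70.0%, near the 59.5% of all genes, and their median change was 0.013. Among those lower, POSTN, MSTN and BAMBI passed the filter only through the epidermal arrays, with 0, 1 and 1 corneal arrays above background. Where all arrays had to be above background, 13 list genes were higher and 12 lower.

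**Figure D4:**
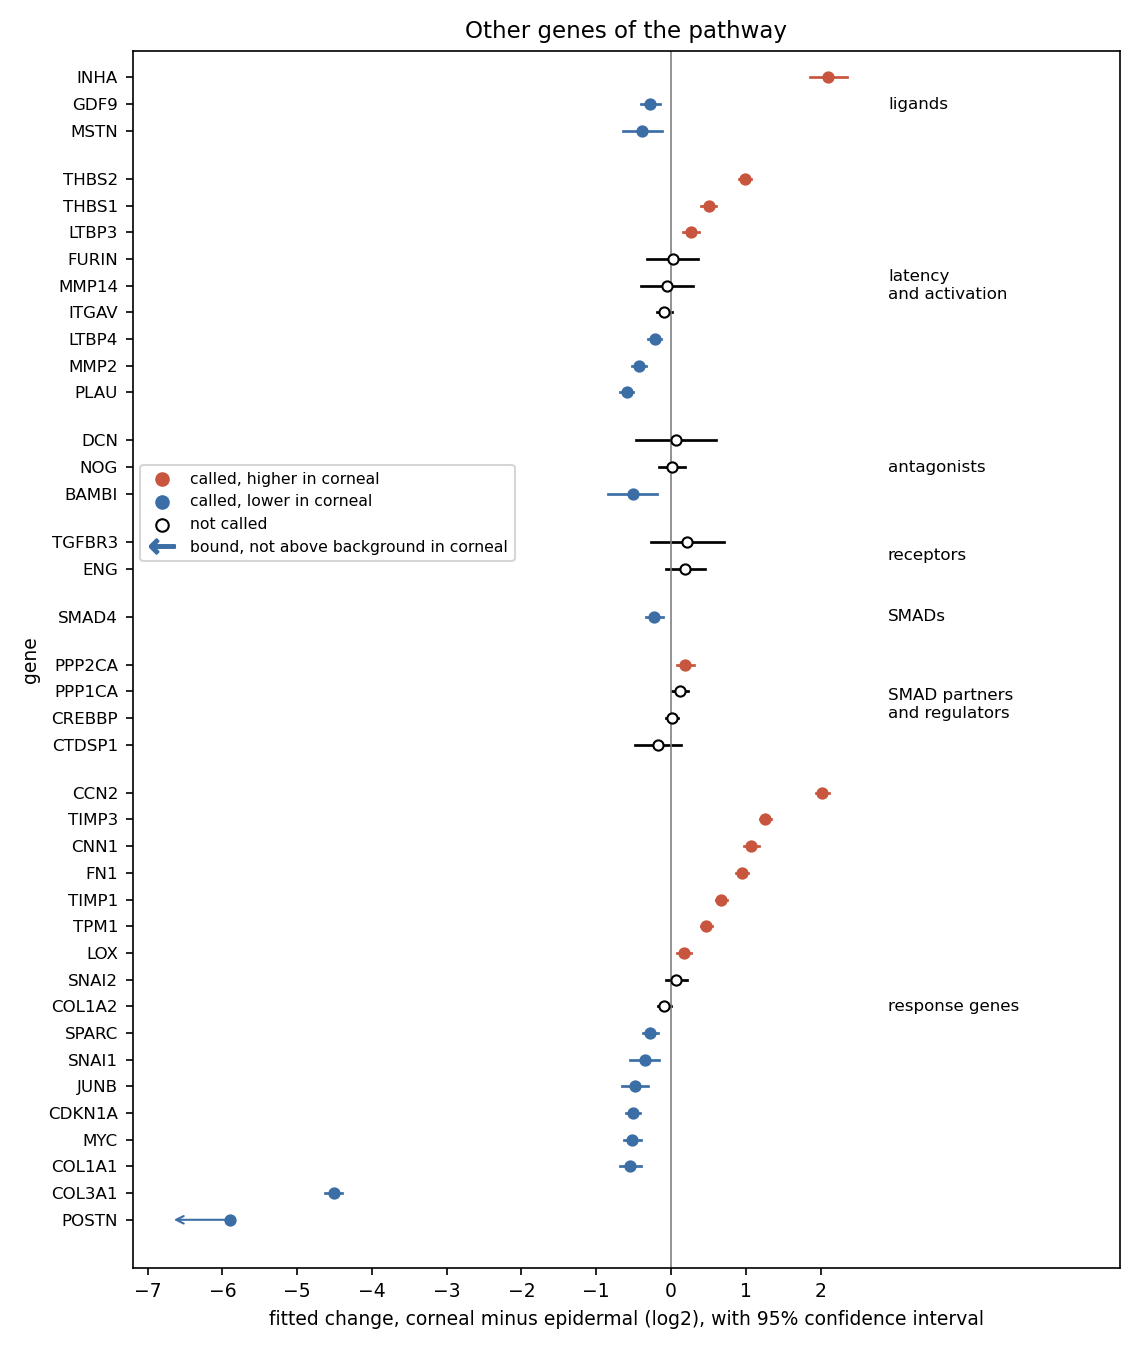
Fitted change of other measured pathway genes, all but 1 of the 40, corneal minus epidermal on the log2 scale with 95% confidence intervals, by list, with filled points for called genes. POSTN is drawn at the bound of at least 59.9-fold lower with an arrow, since it was not above background on any corneal array, and INHA and CCN2 lie farthest to the right.

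Among ligand subunits, INHA rose, and GDF9 and MSTN fell. INHA, the alpha subunit that pairs with a beta subunit such as INHBA to form inhibin, read −5.75, −5.84 and −5.48 on the epidermal and −3.52, −3.58 and −3.66 on the corneal arrays. All corneal arrays were higher, and INHA rose 4.29-fold, a change of 2.10 ± 0.10 with a limma adjusted p = 2.42e-05. A second INHA probe gave 1.98. The epidermal signal of INHA was near background, with a mean of −5.69, though well above it on all 3 arrays. With normexp background correction the change of INHA was 0.64 on that second probe, then the brighter, and 0.68 on the first (limma adjusted p = 2.66e-06 for the second). GDF9, an oocyte growth factor, changed by −0.28 ± 0.050 and MSTN, myostatin, by −0.38 ± 0.10, both dim, with MSTN above background on 1 corneal array. With that correction neither GDF9 nor MSTN was called, with changes of −0.090 (limma adjusted p = 0.0562) and 0.019 (limma adjusted p = 0.618). MSTN also lost its call with quantile normalization, with a change of −0.13 (limma adjusted p = 0.342). The same held with the log2 values deposited by the authors and without epidermal replicate 1 (limma adjusted p = 0.35 and 0.0614).

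Latency and activation genes were split, with 3 up, 3 down and 3 not called of 9 measured. That is 66.7% called, against 59.5% of all genes tested. THBS1 and THBS2 encode thrombospondins, of which THBS1 can activate latent TGF-beta. THBS2 read −1.61, −1.59 and −1.58 on the epidermal and −0.64, −0.57 and −0.60 on the corneal arrays, a 1.98-fold rise. THBS1 rose 1.42-fold. Among the relatives of LTBP1, LTBP3 rose 1.21-fold and LTBP4 was 1.17-fold lower. Without scaling LTBP3 was not called, with a change of 0.10 (limma adjusted p = 0.179), and LTBP4 changed by −0.39. PLAU, urokinase, was 1.51-fold lower, a change of −0.60 that was −0.28 with normexp, and MMP2, a matrix protease, 1.35-fold lower. The changes of the 3 MMP2 probes ran from −0.43 to −0.25. The antagonist list had 3 measured genes, of which BAMBI, a decoy receptor, was 1.42-fold lower and the BMP antagonist NOG was not called, with a change of 0.0095 (95% confidence interval −0.17 to 0.18) and a second probe of opposite sign at −0.11. BAMBI was above background on 1 corneal array and lost its call with quantile normalization, where the change was −0.30 (limma adjusted p = 0.117). With normexp BAMBI changed by only −0.042 (limma adjusted p = 0.388). Its call was also lost with the log2 values deposited by the authors, and without epidermal replicate 3, corneal replicate 1 or corneal replicate 3.

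Neither of 2 co-receptors, TGFBR3 and ENG, was called. SMAD4, the partner shared by all receptor-activated SMADs, has 4 probes here that do not carry its name in the gene name column and so fell outside the naming rule. SMAD4 read 1.46, 1.34 and 1.46 on the epidermal and 1.15, 1.24 and 1.21 on the corneal arrays. It was 1.17-fold lower, a change of −0.22 ± 0.047 (limma adjusted p = 0.00916), and the changes of its 4 probes ran from −0.36 to −0.13. Of 4 partner and regulator genes, PPP2CA, a phosphatase subunit, was 1.14-fold higher and the rest were not called. Without scaling PPP2CA was not called either, with a change of 0.026 (limma adjusted p = 0.808), and SMAD4 changed by −0.39.

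Response genes, known to be raised or lowered by TGF-beta or BMP in other cells, went both ways, with 8 higher, 8 lower and 2 not called of 18. The share called was 88.9%, against 59.5% of all genes tested, and describes the listed genes only. CCN2, a matricellular growth factor, read 2.78, 2.80 and 2.71 on the epidermal and 4.81, 4.78 and 4.77 on the corneal arrays, a 4.06-fold rise (limma adjusted p = 7.97e-07). TIMP3, a metalloproteinase inhibitor, rose 2.40-fold and CNN1, calponin, 2.11-fold. The change of TIMP3 was 1.26 on the probe used and 0.86 on its other probe. COL3A1, a fibrillar collagen, read 6.75, 6.87 and 6.85 on the epidermal and 2.34, 2.29 and 2.30 on the corneal arrays, and was 22.8-fold lower. The changes of the 4 COL3A1 probes ran from −5.33 to −4.51. POSTN, periostin, could be tested only through its 3 epidermal arrays above background. It was at least 59.9-fold lower, a bound against the dimmest signals above background, as none of the corneal arrays was above background. That size depends on the background correction, since with normexp the fitted change of POSTN was −3.17, and −3.66 without spots of extreme local background. COL1A1, a fibrillar collagen, was 1.46-fold lower and MYC, a growth regulator, 1.43-fold lower. The change of COL1A1 was −0.55 on the probe used and −0.24 on its other probe. Of the 40 measured genes, 6 (CNN1, COL1A1, COL1A2, COL3A1, DCN and POSTN) also stand on the lists of mesenchymal or smooth muscle markers, whose summed levels are given above.

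Among 718 measured genes with a symbol outside the rule, those whose values over the 6 arrays were most like BMP4 were PTGS2, SLC2A3 and MX2. Likeness was the root mean square difference of values centred on each gene's own mean, 0.031, 0.040 and 0.076 on the log2 scale. For FST the closest were SERPINF1, HOXA7 and KLK1, at 0.056, 0.063 and 0.074. With 2 groups of 3 arrays this measure mostly finds genes with a change of the same size, here 1.54, 1.53 and 1.66 beside BMP4 and −1.60, −1.71 and −1.59 beside FST.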

How the data were processed

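RNA of 6 samples was measured on 1 Agilent sheep array each. The authors deposited linear spot intensities from Agilent Feature Extraction 10.7, named in the submitters' processing notes, with background subtracted and detrended per the file headers. They also deposited a table of log2 values, each array with a median of 7.23. How that table was made is not stated in the sources used here, and it served as an alternative.

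Control spots and outlier spots were left out. Each processed signal was put on the log2 scale, the 75th percentile of its array was subtracted, and spots of one probe were averaged. A probe needed 3 arrays, in whichever group, with a signal well above background, which left 11727 of 15008 probes. A gene was its kept probe of highest mean value, and unnamed probes were transcripts of their own. A symbol was found for 1547 probes, from the array's annotation and a RefSeq table of sheep genes (assembly ARS-UI_Ramb_v3.0, names only).

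limma 3.58.1 in R 4.3.3 (lmFit, eBayes) compared the groups over all 6 arrays without a block, with Benjamini-Hochberg adjustment over 11370 genes and transcripts, and was tested on simulated data. A probe above background on no array of a group has a bound there, the brighter mean against the dimmer mean of, per array, the higher of its own value and the lowest value above background. An exact permutation test of 3 against 3 cannot give a p under 0.1 and was not used. All pathway genes of the naming rule are described, and in each list called genes, up to 4 per direction by size. One list gene that this takes is not reported here. NOG, TGFBR3 and ENG, and the list genes shared with the marker lists, were named after their values were seen. Members and lists were chosen with earlier results of these data known. Alternatives were other scalings, background corrections, filters, the deposited log2 values, each probe by itself, a replicate block and each array left out.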

Additional observations from a re-analysis of the deposited data

How the results depend on the processing

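All alternatives were planned. The counts of pathway and list genes higher or lower stayed within 1.5 times under each of the 17, as did the count of all genes lower, while without scaling 1464 genes were higher, not 2997. Without the filter on dim probes, 6 pathway genes were higher, BMP15 being added at a level above background on no array. Leaving out 1 array at a time gave 2648 to 2942 genes higher and 3188 to 3491 lower, 4 to 5 pathway genes higher and 7 lower, and 13 to 14 list genes higher and 13 to 15 lower. Replicate numbers are shared by the groups, and the labels do not say whether they pair the samples. Deviations of same-numbered arrays correlated at 0.017, −0.023 and 0.044, and those of other pairs at −0.055 to 0.032. With 3 arrays a group such values cannot decide whether the numbers pair the samples. With a replicate block 2662 genes were higher and 3397 lower, 5 and 7 of the pathway genes and 13 and 14 of the list genes, BAMBI losing its call (limma adjusted p = 0.0516). Of the 18 pathway genes, 11 kept direction and side of the threshold throughout, as did 22 of 28 called list genes, read on the usual probe where each probe was tested. POSTN is among these 22, but it missed the filter and was not tested where all arrays had to be above background. The same held in each run that left out an epidermal array. Signs turned only for genes not called and for MSTN. SMAD1 changed by 0.11 with quantile normalization, 0.034 with normexp, 0.040 with normexp and no spots of extreme local background, and 0.11 with the deposited values. SMAD7 changed by 0.079, 0.031, 0.038 and 0.079 under the same settings. TGFB3 changed by 0.0092 and 0.011 and MSTN by 0.019 and 0.023 under both forms of normexp. Without scaling ACVR1 changed by −0.15 and ACVR1B by −0.034. With 1 array left out, ACVR1 ranged from −0.0050 to 0.045, ACVR1B from −0.087 to 0.31, SMAD3 from −0.20 to 1.27 and SMAD7 from −0.14 to 0.059, with signs turned without corneal replicate 1 (ACVR1, SMAD7), corneal replicate 2 or epidermal replicate 1 (ACVR1B) and corneal replicate 3 (SMAD3, whose other probe then stood for it, while the usual one changed by 0.084). LTBP3, PPP2CA and LOX lost their calls without scaling. TGFB3 was called without scaling (−0.47, limma adjusted p = 0.0489). The causes were not tested. Signals near background limit TGFB3, ACVR1B, SMAD1, SMAD3, MSTN and BAMBI, and INHA on the epidermal arrays.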

Other observations

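Some probes next to the pathway were taken neither by the naming rule nor by the lists. A probe described as a gremlin-like transcript, by that name related to the BMP antagonists of the gremlin family, read −2.94, −2.97 and −2.83 on the epidermal and −3.84, −3.72 and −3.79 on the corneal arrays. It fell with FST, with a change of −0.87 ± 0.052 (limma adjusted p by probe 5.65e-05). Transforming growth factor alpha, which despite its name is a ligand of the EGF receptor, rose on both of its probes, by 0.78 ± 0.071 and 0.96 ± 0.17 (limma adjusted p by probe 0.000304 and 0.0046). A second probe described as BMP receptor IB, from a clone of its own, was above background on none of the 6 arrays, while the BMPR1B probe was above it on all 6. Both probes described as inhibin binding protein were above background on no array.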
